A study of Rattus norvegicus with 5 samples.

Results

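The fibrous zone (FZ) of the mandibular condylar cartilage (MCC) was set against the hypertrophic chondrocyte zone (HZ), that is, the outermost cell layer of the jaw joint cartilage against the deepest one. The comparison uses 2 of the 5 arrays of the series and 31042 of its 31099 probe sets, all except the array's control probe sets. A probe set is a group of short oligonucleotides that together read 1 transcript. Both tissues came from wild type male Sprague-Dawley rats, 5 weeks old, with no treatment. Cells were cut out of 7 µm frozen sections by laser-capture microdissection, the lysates of many sections were pooled into 1 sample per zone, and the RNA was amplified in linear cycles before hybridization. The labels give 30 sections for each zone, whereas the study's methods give more for FZ than for the other zones, and neither says how many animals the sections came from. The proliferative (PZ) and mature chondrocyte (MZ) zones of the same cartilage and the femoral condylar cartilage (FCC), 1 array each and captured in the same way, are given beside FZ and HZ where they show where a gene's level turned. By the study's methods the FCC sample held chondrocytes of the middle and deep femoral zones, without the superficial zone. With 1 array per zone there was no replicate, so no test was possible and each difference describes 2 arrays.

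The mandibular condyle is covered by a fibrocartilage, not by the hyaline cartilage of most joints. Its surface is a sheet of fibroblast-like cells in dense collagen, under which progenitors divide, become chondrocytes that lay down type II collagen and aggrecan, and at the bottom enlarge, make type X collagen and mineralize their matrix. The deepest layer borders on bone, marrow and vessels, where cartilage is replaced by bone in endochondral ossification.

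All values below are log2 values relative to the median of the same probe set over the 5 arrays. A value of 0 therefore marks the middle array of a probe set and not a level, and only differences between arrays of the same probe set can be read. A difference of 1 on this scale is 2-fold and a difference of 2 is 4-fold. For a gene with several probe sets the mean over them is given unless stated otherwise. Because the captured cells were pooled, a lower value cannot tell fewer cells of a type apart from less RNA per cell.

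Most probe sets differed little between FZ and HZ, and 82.1% of them lay within 0.5 of each other. The remainder was uneven in size. At a difference of at least 2, the size used in the study's methods, 294 probe sets were higher in FZ (0.947% of all) and 93 were lower (0.3%). The study removed the lowest intensity values before it applied this size, which was not done here. All shares here are therefore over probe sets or genes of any intensity. At a difference of at least 1 the numbers were nearly equal, 954 higher (3.07%) and 991 lower (3.19%). At 3 or more there were 123 higher and 10 lower, and at 4 or more 50 higher and 0 lower. The differences towards FZ were thus longer in reach than those towards HZ, with extremes of 7.45 and −3.98. With 1 value per gene, 507 of 14217 named genes were at least 1 higher in FZ (3.57%) and 456 were lower (3.21%), and these shares are the background for every gene list below. The lists were chosen with earlier results of these data known and hold some of the furthest genes. Their counts therefore describe the 2 arrays and are not independent support. If the arrays were instead set to equal means of their 18 hybridization controls, which averaged −0.15 in FZ and −0.03 in HZ, the median of all probe sets moved to 0.12 and the gene counts were 622 higher and 357 lower.

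The named genes furthest above HZ in FZ were those of fibrous connective tissue, together with a retinoic acid carrier and a carbonic anhydrase. Crabp1, which binds retinoic acid in the cytoplasm, had the widest difference of any probe set. It stood at 4.89 in FZ and −2.56 in HZ, 2.51 in PZ and 0.00 in MZ, and −2.32 in FCC, so that FZ exceeded HZ by 7.45. Its value thus stepped down at each zone, and HZ lay beside the femoral cartilage. Fndc1, a fibronectin type III domain protein of the matrix, was 3.36 in FZ and −3.91 in HZ, with 2.52 in PZ and −0.71 in MZ, a difference of 7.26. Dpt (dermatopontin), a small matrix protein that binds decorin and helps collagen fibrils to form, was 3.72 in FZ and −3.10 in HZ, with 2.80 in PZ and −0.85 in MZ by the wider of its probe sets, and its differences were 6.52 and 6.81. For Fndc1 and this probe set of Dpt PZ lay nearer to FZ than to MZ. The other probe set of Dpt was 4.62 in FZ and −1.90 in HZ, with 1.96 in PZ and −0.24 in MZ, and its largest step lay between FZ and PZ. Tnmd (tenomodulin), a membrane glycoprotein of tendon, followed another course. It was 5.29 in FZ and 2.86 in PZ, but −0.37 in MZ and −0.35 in HZ, so that its difference of 5.63 was complete above the mature zone.

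Other genes among the 25 furthest above HZ, each by its probe set with the widest difference, were matrix proteins and receptors. Only probe sets under 1 gene symbol were ranked. Of those at least 2 apart, 63 of the 294 higher and 32 of the 93 lower had no such symbol. Genes read only by these could not enter the 25 on either side. Col14a1, a collagen that sits on the surface of fibrils, was 1.60 in FZ and −4.33 in HZ, and Aspn (asporin), a small leucine-rich proteoglycan, was 3.20 in FZ and −2.68 in HZ. Col8a2, a short-chain network collagen, differed by 5.40, Matn2, an adaptor protein of the matrix, by 5.45, and Tnn, a tenascin, by 4.66. The secreted protein C1qtnf3 differed by 5.51 and Igfbp6, which binds insulin-like growth factors, by 4.94. Ephb3, a receptor for ephrins, was 2.39 in FZ and −2.64 in HZ. Ntrk2, a receptor for neurotrophins, was 2.82 in FZ and −2.01 in HZ by 1 of its 5 probe sets, whereas the lowest of them gave a difference of −0.05. Mrgprf, an orphan receptor, and Cldn11, a claudin of tight junctions, likewise differed by 5.15 and 4.43 by 1 probe set and by 0.66 and 0.11 by the other. The carboxypeptidase-like protein Cpxm2, the receptor Plxdc1, the noncoding RNA Miat, the matrix protein Hmcn1 and Zfp185, Fam180a and Tnfaip8l3 were also among the 25, with differences between 4.42 and 5.44. Single probe sets therefore carried part of this list. Of 80 genes with several probe sets, 1 of them at least 2 higher in FZ, the other probe sets numbered 118, of which 89 were also above 0, 36 were at least 1 higher and 0 were at least 1 lower. Of the 118, 67 lay within 0.5 of 0 and so showed little of the difference.

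**Figure D1:**
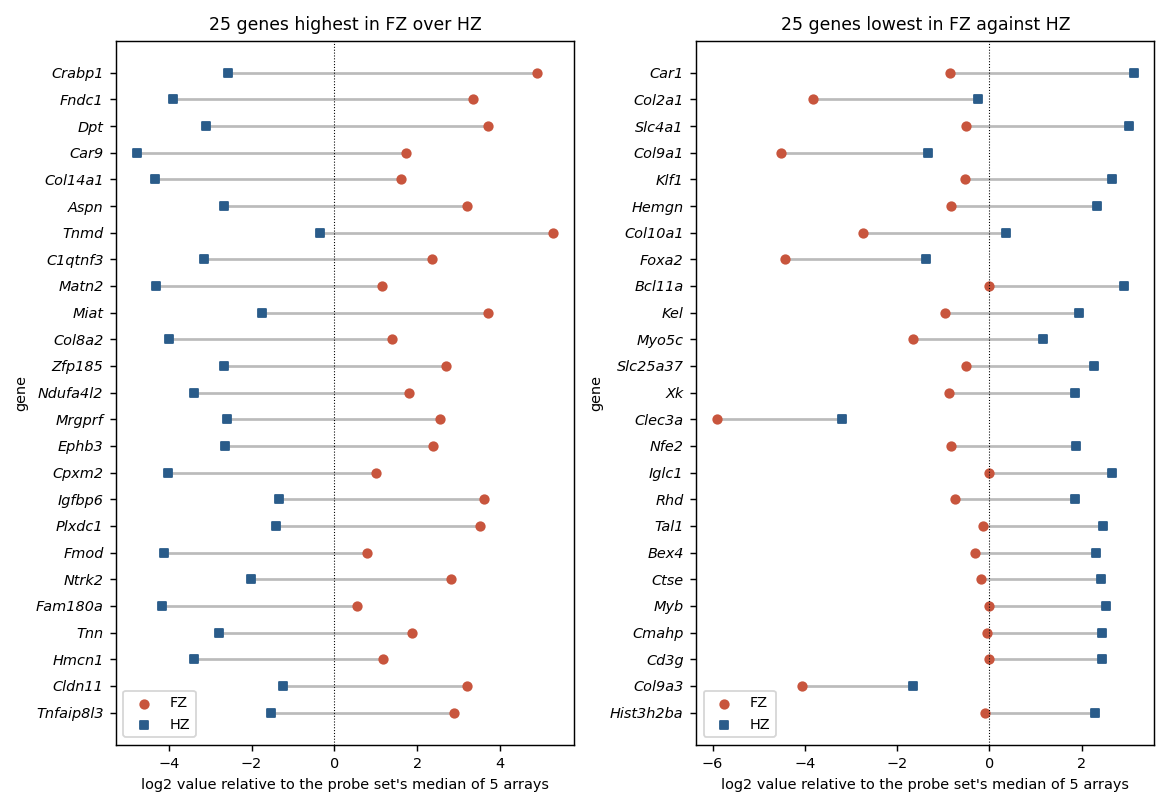
Log2 values relative to the median of 5 arrays (horizontal axes) of the 25 named genes with the largest differences in each direction. FZ is shown as circles and HZ as squares, 1 array each and 1 probe set per gene. Differences reach 7.45 for Crabp1 on the left, and on the right Car1 leads with −3.98. On the right the collagens, Clec3a and Foxa2 lie furthest below 0 in FZ. The others lie between −1.65 and 0 in FZ and above 0 in HZ.

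Genes of tendon and fibrous connective tissue were mostly higher in FZ. Of 34 on the array, 20 were at least 1 higher and 0 were at least 1 lower, with a median of 1.37 beside 0 over all genes. Postn (periostin), a matrix protein of periosteum and ligament, was 1.06 in FZ and −1.77 in HZ. The type VI collagen chains Col6a1, Col6a2 and Col6a3 differed by 2.05, 2.70 and 1.16. Scx (scleraxis), which directs tendon formation, was 1.04 in FZ and −0.31 in HZ, with 0.68 in PZ and 0.00 in MZ. Other members of the list lay near 0. Col1a1 and Col1a2, the chains of type I collagen, differed by −0.09 and −0.06, Dcn (decorin) by −0.06 and Lum (lumican) by 0.14.

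The genes of elastic fibres and of their microfibril scaffold were in part higher in FZ too, and Mfap4 and Mfap5 are also in the tendon list. Of 18, 8 were at least 1 higher in FZ and 0 lower, with a median of 0.65. Mfap4, a microfibril-associated protein, was 3.29 in FZ and −1.12 in HZ, with 0.00 in PZ and −0.78 in MZ, and Ltbp4, which holds latent TGF-beta on microfibrils, was 1.65 in FZ and −2.53 in HZ, with 0.00 in PZ and −1.89 in MZ. The differences were 4.41 and 4.18. Fbn2 (fibrillin 2) was 2.47 in FZ and −0.03 in HZ and Mfap5 3.04 in FZ and −0.43 in HZ. Eln, elastin itself, differed by 0.55 and Fbn1 (fibrillin 1) by 0.75. The list's median step was 1.13 for FZ against PZ, −0.04 for PZ against MZ and −0.03 for MZ against HZ. The step of FZ against PZ is not particular to this list. It was 0.73 for oxidative phosphorylation and 0.46 for ribosomal protein genes. The hybridization controls ran the other way, at 0.44 in PZ against −0.15 in FZ. Setting them equal would thus widen the step of FZ against PZ for every gene.

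The genes of cartilage matrix split into opposed groups, so that their median of −0.16 describes neither. Of 21 genes, 7 were at least 1 higher in FZ, 8 were at least 1 lower and 6 were neither. The lower ones were led by the collagens of cartilage fibrils. Col2a1, the main chain of those fibrils, was −3.83 in FZ and −0.25 in HZ, with 0.00 in PZ and 0.48 in MZ by the widest of its 3 probe sets, whose differences ran between −3.58 and −1.59. Col9a1, a chain of the type IX collagen on the fibril surface, was −4.53 in FZ and −1.33 in HZ, with 0.00 in PZ and 0.66 in MZ, and Col9a3 was −4.07 in FZ and −1.66 in HZ, with 0.05 in PZ and 0.00 in MZ. The low values of FZ were reached in 1 step, between PZ and FZ. Clec3a, a cartilage lectin, was −5.90 in FZ and −3.19 in HZ but 0.00 in PZ and 0.26 in MZ, so both outer zones lay far below the middle ones. Of the 6 chains of types II, IX and XI, 5 were at least 1 lower in FZ, and the exception, Col11a1, was −0.67. Cnmd (chondromodulin), a cartilage protein that inhibits vessel growth, was −2.06 in FZ, 2.08 in MZ and 0.00 in HZ, and Snorc, a transmembrane proteoglycan of chondrocytes, was −2.34 in FZ and −0.38 in HZ.

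The 7 genes that were higher in FZ included aggrecan and its link protein. Acan (aggrecan), which binds water and gives cartilage its resistance to load, was 0.41 in FZ and −1.87 in HZ, with 0.00 in PZ and −0.44 in MZ, and its 2 probe sets gave differences of 2.05 and 2.52. Hapln1, the link protein that ties aggrecan to hyaluronan, was −0.69 in FZ and −2.35 in HZ, with 1.08 in PZ and 0.00 in MZ. Among the 4 zones aggrecan was thus highest in FZ and lowest in HZ, while the type II and IX chains were lowest in FZ. Fmod (fibromodulin), which binds collagen fibrils and limits their width, was 0.79 in FZ and −4.12 in HZ, Prelp, a proteoglycan that anchors basement membrane to fibrils, was 1.54 in FZ and −2.73 in HZ, and Ucma, a protein of upper growth plate and resting cartilage, was 0.32 in FZ and −3.90 in HZ. Cilp2 and Chad differed by 3.87 and 1.33. Comp, a matrix protein that binds collagens, was −2.33 in FZ and −2.63 in HZ but 0.29 in MZ, a case of outer zones alike and both low.

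**Figure D2:**
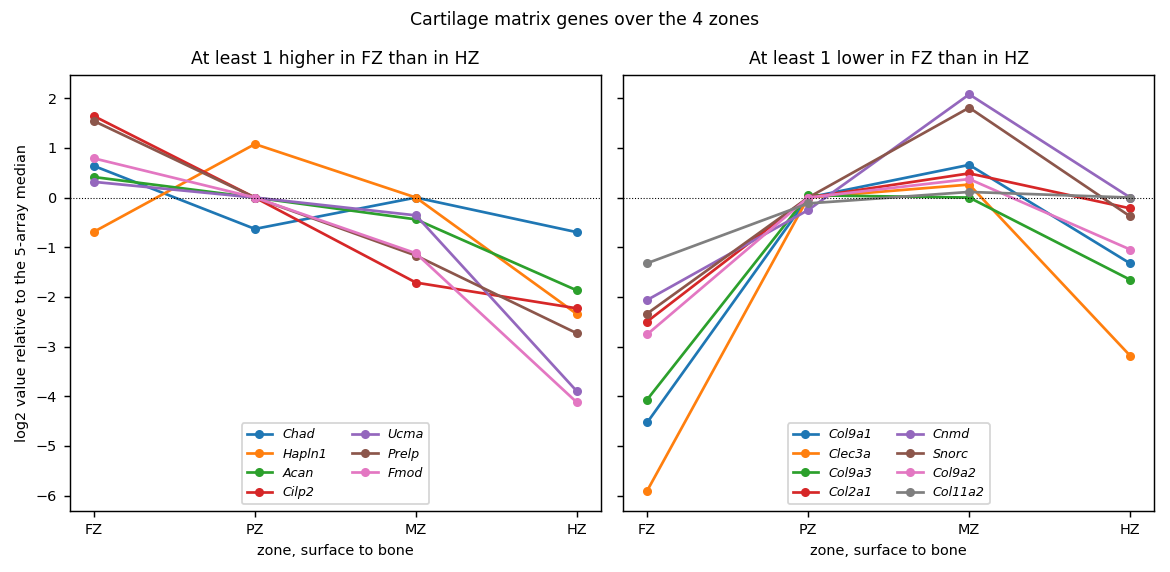
Log2 values relative to the 5-array median (vertical axis) over FZ, PZ, MZ and HZ for the 7 cartilage matrix genes at least 1 higher in FZ than in HZ (left) and the 8 at least 1 lower (right), 1 array per zone. On the left most lines are lowest in HZ, with Fmod at −4.12, and on the right all lines are lowest in FZ, with Clec3a at −5.90.

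The small leucine-rich proteoglycans, which bind collagen and growth factors, share Fmod, Prelp and Chad with the cartilage list and Aspn, Dcn, Lum and Ogn with the tendon list, so these counts are not independent of each other. Of 11, 7 were at least 1 higher in FZ and 0 were lower, with a median of 1.12. Besides Fmod, Prelp, Chad and Aspn these were Ecm2 (1.18 in FZ and −2.50 in HZ), Bgn (biglycan, 0.81 in FZ and −0.31 in HZ) and Podn (0.52 in FZ and −0.54 in HZ). Omd (osteomodulin), a member made by bone cells, differed by −0.52.

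The genes of hypertrophic chondrocytes and mineralization were mostly lower in FZ than in HZ. Of 18, 0 were at least 1 higher in FZ and 5 were lower, with a median of −0.55, and 16 lay below 0. Col10a1, the collagen made by hypertrophic chondrocytes, was −2.73 in FZ and 0.37 in HZ, with −1.61 in PZ and 0.62 in MZ, a difference between FZ and HZ of −3.10. HZ did not exceed MZ for this gene, and the list's median was 0.42 in MZ and 0.32 in HZ. As a whole the list thus did not set HZ apart from MZ and cannot check the label of HZ. Phex, a peptidase of mineralizing cells, was −0.42 in FZ and 1.68 in HZ, with 0.00 in PZ and 0.59 in MZ. Panx3, a channel protein of differentiating chondrocytes and bone cells, differed by −1.24, Ihh (Indian hedgehog), the signal of prehypertrophic chondrocytes, by −1.22, and Spp1 (osteopontin) by −1.13. Mmp13, the collagenase of the last hypertrophic stage, was 0.00 in FZ and 0.37 in HZ, and Ibsp (bone sialoprotein) was −0.02 in FZ and 0.27 in HZ. Col10a1 thus lay further apart between the zones than Mmp13 and Ibsp did. Foxa2, a transcription factor that in mice acts on hypertrophic genes, was −4.43 in FZ and −1.37 in HZ, with 0.00 in PZ and 0.08 in MZ. Gli1, a transcription factor and target gene of hedgehog signalling, ran the other way from Ihh, at 0.85 in FZ and −2.24 in HZ, with 0.00 in PZ and −0.02 in MZ, while the other 10 members of the hedgehog and PTHrP list differed by less than 1.

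Cholesterol synthesis was the list with the highest median by the mean of a gene's probe sets, at 1.45 against 1.37 for the tendon list. By the probe set with the largest SD it came after the tendon list, at 1.34 against 1.39. Cholesterol is built from acetyl-CoA through mevalonate, squalene and lanosterol, and the genes of the pathway are switched on together by the transcription factor SREBP-2 when sterols in the cell are low. All 17 genes on the array had a difference above 0, 11 of them at least 1 higher in FZ and 0 lower, with a median of 1.45 and a range between 0.30 and 2.17. Sqle (squalene epoxidase), a rate-limiting enzyme of the sterol branch, was 1.37 in FZ and −0.80 in HZ, with 0.03 in PZ and 0.00 in MZ. Fdps, which makes farnesyl diphosphate, was 1.26 in FZ and −0.66 in HZ, with 0.06 in PZ and 0.00 in MZ, and Hsd17b7, a reductase acting after lanosterol, was 1.31 in FZ and −0.47 in HZ, with 0.83 in PZ and 0.00 in MZ. FZ was the highest and HZ the lowest zone for all 3. Cyp51, the lanosterol demethylase, differed by 1.75 and Dhcr7, the last reductase, by 1.73. The smallest differences were those of Pmvk (0.30), Ebp (0.46) and Mvk (0.46), all with the same sign. Of 18 other SREBP targets and regulators, 3 were at least 1 higher and 0 lower, with a median of 0.70, whereas 9 were higher by the probe set with the largest SD and 5 with arrays set to equal hybridization controls. Scd, the desaturase that makes oleate, was 1.92 in FZ and −2.03 in HZ, with 0.01 in PZ and −1.34 in MZ, and Acss2, which makes acetyl-CoA from acetate, was 1.69 in FZ and −0.58 in HZ. Srebf2, the gene of SREBP-2 itself, differed by 0.36 and Srebf1 by 0.56.

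Because these genes lay on the same side, the promoters of a few are shown, from 250 bases before to 50 bases after the RefSeq start in the rat assembly GRCr8. Of the 17 genes, 14 had a promoter in the table. The CCAAT box (CCAAT, searched on both strands) is an element that many housekeeping promoters carry, and it matched in 11 of the 14 (78.6%), against 37.5% of all 33469 promoters. The sterol element TCACNCCAC matched in 0 of the 14, against 1.12% of all promoters, which says only that these letters were not in this window. Capitals mark the CCAAT boxes or their reverse complement in Fdps (chr2:176804767-176805066, minus strand) and Hsd17b7 (chr13:84722705-84723004, minus strand), the genes with a match that differed most.
Fdps: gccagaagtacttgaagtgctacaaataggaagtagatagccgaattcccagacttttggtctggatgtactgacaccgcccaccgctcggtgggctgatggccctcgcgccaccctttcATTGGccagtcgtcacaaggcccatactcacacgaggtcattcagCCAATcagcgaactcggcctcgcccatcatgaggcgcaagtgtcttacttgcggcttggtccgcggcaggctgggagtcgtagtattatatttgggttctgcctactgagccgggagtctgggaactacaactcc
Hsd17b7: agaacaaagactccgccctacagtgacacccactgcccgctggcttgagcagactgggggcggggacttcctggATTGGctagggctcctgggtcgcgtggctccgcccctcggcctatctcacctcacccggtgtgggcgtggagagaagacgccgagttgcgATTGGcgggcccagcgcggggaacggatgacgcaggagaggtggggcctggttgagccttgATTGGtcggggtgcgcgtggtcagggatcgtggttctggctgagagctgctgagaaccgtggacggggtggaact
Fdps held 2 matches and Hsd17b7 held 3, all before the start site. A match is a description of the sequence and was not tested for use.

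Genes of glycolysis and of the response to low oxygen were also higher in FZ. Of 29, 12 were at least 1 higher and 0 lower, with a median of 0.93, and 27 were above 0. Car9, a membrane carbonic anhydrase that the hypoxia-inducible factor HIF-1 switches on, was 1.71 in FZ and −4.77 in HZ, with 0.04 in PZ and −1.39 in MZ, a difference of 6.48. Egln3, an oxygen-sensing hydroxylase, was 2.11 in FZ and −0.49 in HZ, Slc16a3, a lactate exporter, 0.11 in FZ and −2.41 in HZ, and Bnip3, a protein of mitochondrial clearance, 0.59 in FZ and −1.76 in HZ. Ndufa4l2, a mitochondrial protein likewise known as a HIF-1 target and not in the list, was 1.81 in FZ and −3.40 in HZ. Among the glycolytic enzymes Aldoc differed by 2.78, Tpi1 by 1.33, Ldha by 1.21 and Eno1 by 1.13. Hif1a, the gene of the factor, differed by 0.20, and the glucose transporter Slc2a1 by 1.55. The array's own control probe sets for GAPDH, another glycolytic gene, differed by 0.63, 1.18 and 0.97 at its 5′ end, middle and 3′ end, and those for beta-actin by 0.26, −0.14 and −0.12. By contrast, 0 of 48 genes of oxidative phosphorylation and 0 of 31 ribosomal protein genes differed by 1 in either direction, with medians of −0.11 and −0.05.

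Genes of red cells and of their precursors led the genes that were lower in FZ. Of 23 erythroid genes, 19 were at least 1 lower and 0 higher, with a median of −1.91, and all 23 lay below 0. Car1, which red cells use to hydrate carbon dioxide, was −0.85 in FZ and 3.13 in HZ, with −0.75 in PZ and 1.73 in MZ, which gave the lowest difference on the array, −3.98. Klf1, the transcription factor that turns on adult globin, was −0.52 in FZ and 2.65 in HZ, with −0.62 in PZ and 1.45 in MZ. Slc4a1, the anion exchanger of the red cell membrane, was −0.51 in FZ and 3.03 in HZ by 1 probe set, with a difference of −3.53, and differed by −0.95 by the other. For these genes FZ and PZ lay close together and the values stepped up in MZ and again in HZ. Gata1, the master factor of the lineage, was −0.36 in FZ and 1.59 in HZ, and Ahsp, which stabilizes free alpha globin, was −0.63 in FZ and 1.74 in HZ. The globin Hbb itself differed by −1.02. The blood group proteins Xk and Rhd and the factor Nfe2 differed by −2.72, −2.61 and −2.71, each by 1 probe set. Kel and the factor Tal1 differed by −2.90 and −2.60 by 1 probe set but by −0.06 and 0.20 by the other. Of 15 genes with several probe sets, 1 of them at least 2 lower in FZ, the other probe sets numbered 20, of which 16 were below 0, 9 were at least 1 lower and 0 were at least 1 higher. Of the 20, 8 lay within 0.5 of 0. The enzymes and carriers of haem synthesis, a list that shares Alas2 and Tfrc with the erythroid one, lay on the same side. Of 11, 7 were at least 1 lower and 0 higher, with a median of −1.31, among them Slc25a37 (mitoferrin), which brings iron into mitochondria (−0.50 in FZ and 2.28 in HZ), and Alas2, the first enzyme of the pathway in red cells (−0.97 in FZ and 0.94 in HZ). Alas1, its counterpart in other cells, differed by 0.18.

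Factors of the GATA family bind the letters AGATAA or TGATAA, and Gata1 is known to act through them on red cell genes. Of the 23 erythroid genes, 17 had at least 1 promoter in the table, and 8 of their 18 promoters held a match on either strand (44.4%), against 18.9% of all promoters and 0 of the 14 cholesterol promoters. CCAAT matched in 9 of the 18 (50%). Capitals mark the matches or their reverse complement in the matched genes that differed most, Klf1 (chr19:40158602-40158901, minus strand) and Hemgn (chr5:65485772-65486071, minus strand), a nuclear protein of blood precursors that was −0.84 in FZ and 2.33 in HZ.
Klf1: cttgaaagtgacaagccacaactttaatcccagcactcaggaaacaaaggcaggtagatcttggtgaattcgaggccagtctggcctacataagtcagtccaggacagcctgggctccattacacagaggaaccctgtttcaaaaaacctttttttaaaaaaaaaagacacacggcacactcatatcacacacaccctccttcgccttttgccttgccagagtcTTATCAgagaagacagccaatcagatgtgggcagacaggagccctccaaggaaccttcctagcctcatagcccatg
Hemgn: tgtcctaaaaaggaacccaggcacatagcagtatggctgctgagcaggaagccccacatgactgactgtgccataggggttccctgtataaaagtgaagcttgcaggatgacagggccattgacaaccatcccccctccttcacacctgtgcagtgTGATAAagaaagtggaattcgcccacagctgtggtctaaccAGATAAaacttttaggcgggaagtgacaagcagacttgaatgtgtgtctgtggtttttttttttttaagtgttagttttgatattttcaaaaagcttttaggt
Klf1 held 1 match, which starts 26 bases before the start site, and Hemgn held 2. Binding was not measured.

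**Figure D3:**
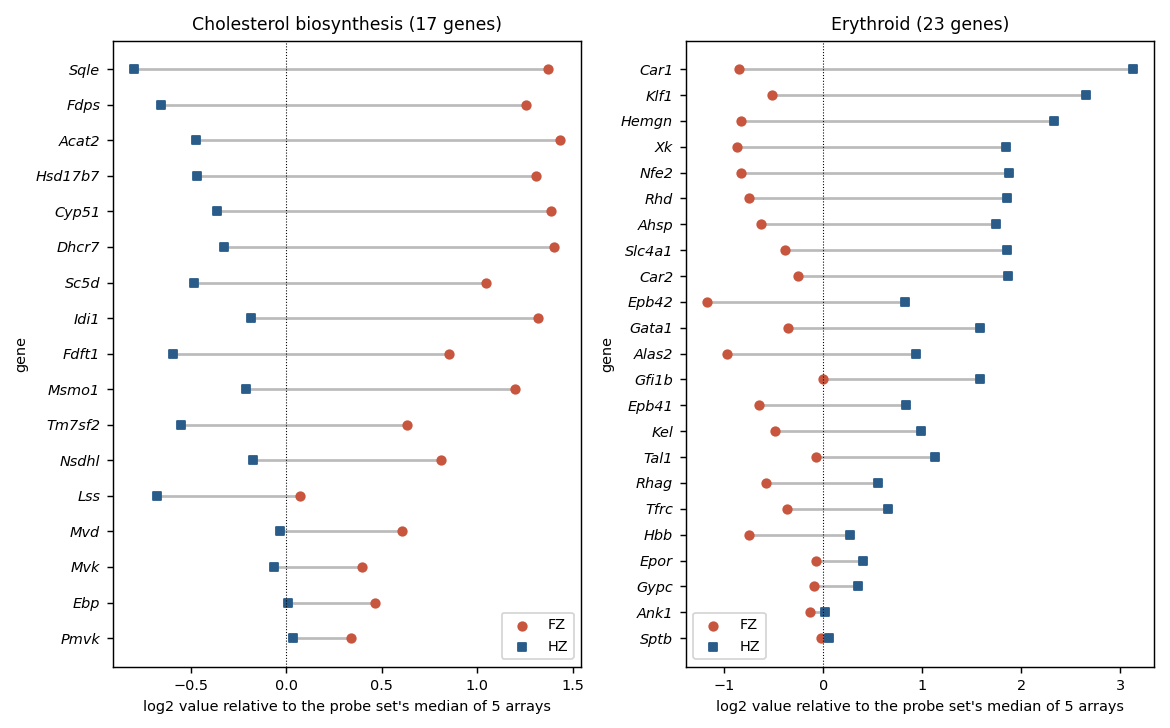
Log2 values relative to the 5-array median (horizontal axes) in FZ (circles) and HZ (squares), 1 array each, for the 17 cholesterol synthesis genes (left) and the 23 erythroid genes (right), by the mean of a gene's probe sets. FZ lies right of HZ for all cholesterol genes, led by Sqle with a difference of 2.17, and left of HZ for all erythroid genes, led by Car1 with −3.98.

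White cell genes were lower in FZ too, by less. Of 19 genes shared by all leukocytes, 14 were at least 1 lower and 0 higher, with a median of −1.28. Cd52, a surface glycoprotein of lymphocytes and monocytes, was −1.05 in FZ and 0.98 in HZ, and Lcp1 (plastin 2), a leukocyte actin bundler, was 0.00 in FZ and 1.51 in HZ. Ptprc (CD45), the common leukocyte antigen, differed by −1.31 by 1 probe set and by −0.14 by the other. Of 21 B and T lymphocyte genes 9 were lower and 0 higher, with Cd3g, a chain of the T cell receptor complex, at 0.00 in FZ and 2.45 in HZ, and Ms4a1 (CD20) of B cells at −0.05 in FZ and 2.10 in HZ. Of 14 neutrophil genes 6 were lower and 1 higher, of 20 macrophage genes 6 lower and 1 higher (3 lower with arrays set to equal hybridization controls), of 17 megakaryocyte and platelet genes 4 lower and 0 higher, and of 15 genes of MHC class II and antigen presentation 6 lower and 0 higher. The medians of these lists lay between −0.65 and −0.32. Not all of them were highest in HZ. Neutrophil genes had a median of 0.94 in MZ and 0.30 in HZ, and platelet genes 0.91 and 0.33. Lymphocyte (0.05 and 0.21), macrophage (0.44 and 0.47) and antigen presentation genes (0.58 and 0.65) were higher in HZ than in MZ. Among the 25 genes furthest below HZ, Iglc1, an immunoglobulin light chain, and Myb and Bcl11a, transcription factors of blood precursors, were at 0.00 in FZ and at 2.66, 2.54 and 2.92 in HZ. The 25 also held Ctse, Bex4, Cmahp, Hist3h2ba and Myo5c, with differences between −2.82 and −2.40 by their widest probe sets.

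The zones thus differed in blood cell markers as well as in cartilage genes. The erythroid genes lay between −1.17 and 0.00 in FZ and between 0.02 and 3.13 in HZ, each relative to its own median. The leukocyte genes lay between −1.05 and 0.04 in FZ, where 13 of 19 were at 0, and between 0.00 and 1.51 in HZ, where 1 was at 0. Since 0 is the middle array of a gene, these ranges describe relative values and a value of 0 does not mean that a marker was absent. Of the 456 genes at least 1 lower in FZ, 68 belonged to the blood cell, haem synthesis and antigen presentation lists, against 2 of the 507 that were higher, and 388 lower genes remained without them. These lists hold between 11 and 23 of the 14217 named genes each and were chosen with earlier results of these data known. They overlap in part and their joint share of all genes is not given, so the 68 and the 2 have no background beside them. The part of blood cells in the other differences was not tested. Of 20 endothelial genes, 3 were at least 1 lower and 1 higher, with a median of −0.51 and 16 of the 20 below 0. Of 12 osteoclast genes 2 were lower and 0 higher, with a median of −0.52, and of 17 osteoblast and osteocyte genes 3 were lower and 1, Postn, was higher, with a median of −0.25. The osteoblast list shares at least Phex with the hypertrophy list.

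**Figure D4:**
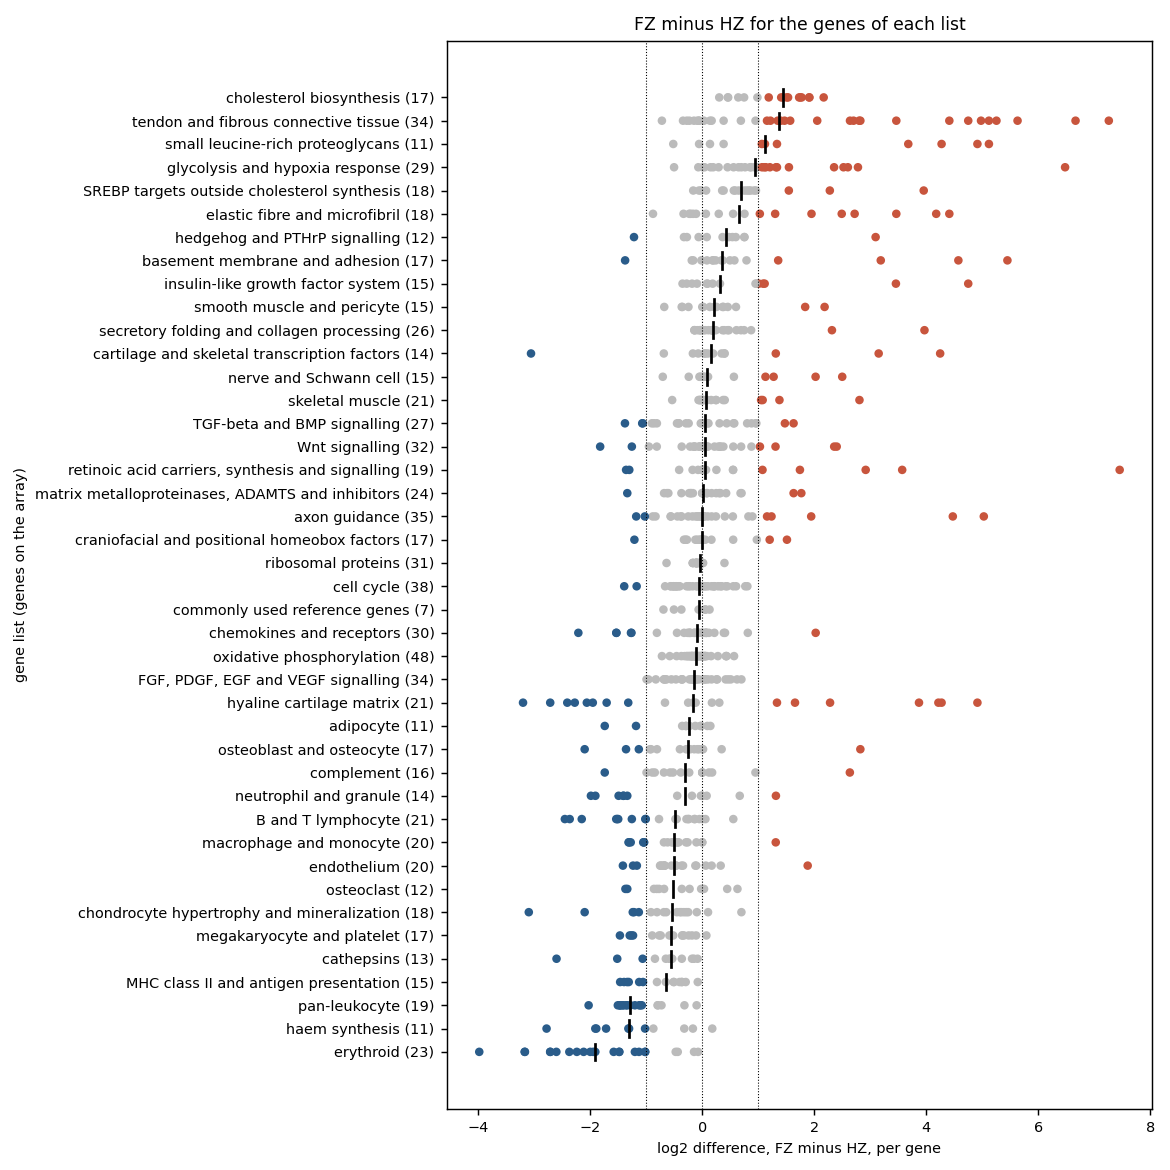
Log2 difference FZ minus HZ (horizontal axis) for each gene of the 42 lists, 1 dot per gene and a black bar at the list's median, with dots at 1 or more in red, at −1 or less in blue and the rest in grey. By the mean of a gene's probe sets cholesterol synthesis stands at the top with a median of 1.45 and the erythroid list at the bottom with −1.91, while 3.57% and 3.21% of all genes lay at 1 or more and at −1 or less.

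Among the signalling genes single members lay far apart between the zones. In the retinoic acid list 5 of 19 were at least 1 higher in FZ and 2 lower. Beside Crabp1, these were Crabp2, which hands retinoic acid to its nuclear receptor (3.24 in FZ and −0.33 in HZ), the retinol carrier Rbp4 (1.81 in FZ and −1.11 in HZ), Rarres2 and the degrading enzyme Cyp26b1 (1.08), against Aldh1a2, an enzyme that makes retinoic acid (0.00 in FZ and 1.30 in HZ), and Rarres1. Of 15 genes of the insulin-like growth factor system 5 were higher and 0 lower, with a median of 0.32. Igf2, a growth factor, was 0.63 in FZ and −0.46 in HZ by the mean of 4 probe sets, which 1 probe set with a difference of 4.39 carried, since the others differed by −0.09, 0.05 and 0.00. The noncoding RNA H19, its imprinted neighbour, differed by 3.46. In the Wnt list 4 of 32 were higher and 2 lower. Wnt9a, a ligand of joint formation, was 1.31 in FZ and −1.09 in HZ, the receptor Fzd1 1.60 in FZ and −0.75 in HZ, and Frzb, a secreted Wnt inhibitor of cartilage, −1.83 in FZ and −0.01 in HZ. Of 27 TGF-beta and BMP genes 2 were higher and 3 lower, with Inhba, an activin subunit, at 1.63, and the BMP inhibitor Grem1 and the ligand Bmp2 at −1.38 and −1.07. These TGF-beta and BMP counts depended on the setting, with 5 higher and 1 lower when arrays were set to equal hybridization controls and 4 higher and 3 lower by the probe set with the largest SD. Of 34 FGF, PDGF, EGF and VEGF genes 0 differed by 1 by the mean of their probe sets, whereas by the probe set with the largest SD 3 were higher and 3 lower, and without probe sets of suffix s, x or a 2 were higher and 0 lower.

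The arrays of PZ and MZ show where between the surface and the bone a gene turned. Of the 294 probe sets at least 2 higher in FZ, 219 (74.5%) were in order over FZ, PZ, MZ and HZ, and of the 93 lower ones 43 (46.2%) were. Among those that differed by at least 1 but under 2, 48% of the 660 higher and 29.3% of the 898 lower ones were in order. A wider gap between FZ and HZ leaves more room for PZ and MZ to lie between them, so these shares cannot be compared as evidence. They are given for the values as deposited. The largest step lay between PZ and MZ for 162 of the higher probe sets, between FZ and PZ for 90 and between MZ and HZ for 42. For the lower ones the numbers were 64, 10 and 19. The place of the largest step among the higher probe sets depended on scaling, since the hybridization controls averaged 0.44 in PZ and −0.02 in MZ beside the values of FZ and HZ given above. With arrays set to equal hybridization controls it lay between FZ and PZ for 176, between PZ and MZ for 102 and between MZ and HZ for 45, while PZ and MZ kept the largest number among the lower ones, 55 against 8 and 9. Genes with their largest step into HZ included Car9, Fmod and Ucma, and those with their largest step between FZ and PZ included Igfbp6, Col2a1 and Col9a1.

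**Figure D5:**
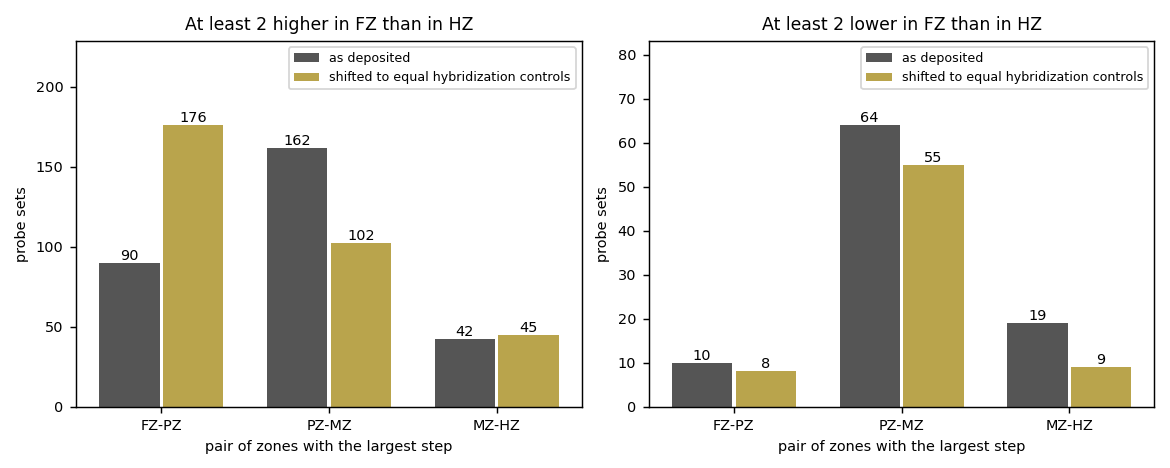
Number of probe sets (vertical axes) at least 2 higher (left) or lower (right) in FZ than in HZ, by the pair of neighbouring zones with the largest step, as deposited and with arrays shifted to equal hybridization controls. On the left the pair with most probe sets is PZ and MZ (162) as deposited and FZ and PZ (176) after the shift, and on the right it is PZ and MZ in both cases (64 and 55).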

How the data were processed

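Each zone gave 1 Affymetrix rat genome array. Before deposit, the authors made log2 values by RMA with quantile normalization and set each probe set's median in the 5 arrays to 0, as found for all 31099. Background correction is described under MAS5, and both tools stand in the submitters' processing notes with no version. The values hold no level, so the number of arrays limits the precision. The annotation build was not given in the sources used here. The HZ value was subtracted from the FZ value for each probe set (Python 3.11.15, pandas 2.3.3, numpy 2.4.6). Probe sets were counted at 2 and genes, by the mean of their probe sets, at 1. No test was possible. Symbols came from the platform annotation, with 20826 probe sets under 1 gene symbol, 436 under several and 9780 not listed. They were updated through RefSeq, which matched 20758 by gene ID and 2 by accession, and 66 kept the annotation's symbol. The genes named are the 25 furthest above and the 25 furthest below HZ and the members of 42 gene lists. The 25 on each side were ranked among probe sets under 1 gene symbol. The gene lists hold 813 genes on the array. The members and lists were chosen with earlier results of these data known. Promoter sequences are those of RefSeq for GRCr8. The counting functions were tested on simulated data, and plots were drawn with matplotlib 3.10.9. Alternatives were centring or control scaling of the arrays, other thresholds, 1 probe set per gene, probe sets with suffix s, x or a left out, and, chosen after seeing the data, blood cell genes left out and probe sets with 1 gene symbol alone.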

Additional observations from a re-analysis of the deposited data

How the results depend on the processing

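Under the 3 alternatives run on each list, no median further from 0 than the typical SD between probe sets of a gene (0.17) changed sign. Of 126 list medians under alternatives, 123 moved by less than this SD. The other 3, for the insulin-like growth factor, SREBP target and lymphocyte lists by the probe set with the largest SD, moved away from 0. The shift to equal hybridization controls moves every difference by the same 0.12. Its medians could therefore neither move by this SD nor change sign from beyond it, and are no check. At a threshold of 1 the probe sets numbered 954 higher and 991 lower in FZ, and at 3 they numbered 123 and 10. Genes at a threshold of 2 numbered 151 higher and 48 lower. With probe sets of 1 gene symbol alone, an alternative chosen after seeing the data, 231 were higher and 61 lower. Leaving out the probe sets of blood cell genes, also chosen after seeing the data, gave 294 higher and 74 lower. At a threshold of 3 the largest step of the higher probe sets lay between FZ and PZ for 24, between PZ and MZ for 76 and between MZ and HZ for 23, and of the lower ones for 4, 5 and 1. Scaling to the hybridization controls gave 176 for FZ and PZ and 102 for PZ and MZ among the higher ones and 9 for MZ and HZ among the lower ones. No paired analysis was possible because the result comes from no test and each zone has 1 array. The depth of signal over background cannot be read from relative values.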

Other observations

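The core clock and its output genes were looked at after Npas2 was seen among the furthest genes, so the list was chosen after values were seen. Of 18, 5 were at least 1 higher in FZ and 0 lower, with a median of 0.43. Npas2, a partner of Bmal1 in the clock, was 0.32 in FZ and −3.93 in HZ, with 0.00 in PZ and −2.22 in MZ. Nr1d1 (Rev-erb alpha), which represses Bmal1, was 0.48 in FZ and −2.73 in HZ, Bhlhe41, a repressor of the clock's activators, was 0.70 in FZ and −2.46 in HZ, and the output factor Dbp was 0.30 in FZ and −1.53 in HZ. Bmal1 and Clock differed by 0.45 and 0.24. The sources used here do not give the time of day at which tissue was taken.

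A few genes of skeletal muscle and of nerve were higher in FZ, while most members of these lists differed by less than 1. Of 21 skeletal muscle genes 4 were at least 1 higher in FZ and 0 lower, with Myh2, a fast myosin, at 2.70 in FZ and −0.10 in HZ, and of 15 nerve and Schwann cell genes 4 were higher and 0 lower, with S100b at 0.61 in FZ and −1.89 in HZ. The myosin Myh1 lay the other way, with differences between −0.86 and −0.19 over its probe sets. The medians of the muscle and nerve lists were 0.06 and 0.08. Of 16 complement genes, C1s, a protease of the classical pathway, was 1.07 in FZ and −1.57 in HZ, and Cfd (adipsin) was 0.00 in FZ and 1.74 in HZ. Of 30 chemokine genes 5 were lower and 1, Ccl2, was higher, at 1.58 in FZ and −0.45 in HZ. Of 13 cathepsin genes 3 were lower and all 13 lay below 0, led by Ctse at −0.17 in FZ and 2.43 in HZ. Of 38 cell cycle genes 2 were lower and 0 higher. Among lists chosen after values were seen, 4 of 25 interferon response genes were lower, led by Ifi44l (−0.87 in FZ and 1.29 in HZ), and 3 of 11 mast cell genes, led by Mcpt1 (−0.37 in FZ and 1.66 in HZ).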
